A study of Homo sapiens with 12 samples.

Results

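The HOX and IRX homeobox genes form a set of 45 among the 29744 rows of the count table. Members were chosen by name alone: a HOXA, HOXB, HOXC or HOXD symbol followed by a number (39 genes, of which 11 are HOXA, 10 HOXB, 9 HOXC and 9 HOXD) or one of IRX1 to IRX6 (6 genes), with antisense and host transcripts left out. RNA came from MB157, an established triple negative breast cancer line, and from MB157R, by the study's account a population selected from it over 25 weeks in 1 µM of the gamma-secretase inhibitor LY3039478, called GSI. Gamma-secretase releases the active intracellular part of NOTCH1, N1-ICD, from the membrane. By the study's account a deletion has removed the extracellular domain of NOTCH1 in MB157 cells. Several HOX and IRX genes that were abundant in one line had 0 counts in the other. Whether MB157R descends from the same stock of MB157 cells was not tested here, so in the comparison of the lines the effect of GSI selection and a difference in origin cannot be told apart.

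There were 4 groups of 3 libraries. MB157 iEV were MB157 cells with a doxycycline-inducible empty vector, and MB157 iSOX2 were MB157 cells with inducible SOX2, a transcription factor of stem cells. MB157R iEV were the GSI-selected cells with the same empty vector, and MB157R iN1-ICD were the GSI-selected cells with the inducible construct named N1-ICD. By the study's account this construct encodes NOTCH1 without its extracellular domain, not the free intracellular part alone. How much of its product was released by gamma-secretase was not tested here. All 4 groups, the iEV controls included, were given doxycycline at 1 µg/ml for 72 h by the labels. Only the R cells had been through the long GSI selection, MB157R is 1 derived population, and whether GSI was present at harvest is not given in the sources used here.

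HOX genes encode transcription factors that set position along the body axis in the embryo, and they lie in 4 clusters in which the order of the genes follows the order of the regions they pattern. Genes of the same number in different clusters are paralogs. Many adult tissues keep a HOX pattern of their own, Polycomb complexes keep the silent genes of a cluster off, and changed HOX expression is a frequent feature of breast cancer. The Iroquois genes IRX1 to IRX6 encode homeodomain proteins of the TALE class and lie in 2 groups of 3, one with IRX4, IRX2 and IRX1 and one with IRX3, IRX5 and IRX6. They take part in patterning of the heart, the limbs and the nervous system.

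On GRCh38 the HOXA genes from HOXA2 to HOXA13 spanned chr7:27100354-27200091, the HOXB genes chr17:48528526-48728750, the HOXC genes chr12:53938831-54056030 and the HOXD genes chr2:176087487-176190907. The 2 IRX groups spanned chr5:1877413-3601403 and chr16:54283304-55330756. RefSeq promoter windows, from 250 bases before to 50 after a start listed for the gene on GRCh38.p14, were given for 23 of the 45 members. For IRX4, HOXD3 and HOXD13 that start lay inside the span of the gene, not at its edge. Where several windows were listed for a gene, as for HOXA3, HOXA10 and IRX4, the one listed first was used. 5 windows are printed 5′ to 3′ on the strand of the gene, because these genes carry the contrasts described further on: HOXA9 and HOXA7 were among the HOXA genes that differed between the lines, IRX1 and IRX4 moved in opposite directions with SOX2, and HOXC4 has the same window as HOXC5. They lie at chr7:27165488-27165787 (minus strand) for HOXA9, chr7:27156626-27156925 (minus strand) for HOXA7, chr5:3595582-3595881 (plus strand) for IRX1, chr5:1886896-1887195 (minus strand) for IRX4 and chr12:54016638-54016937 (plus strand) for HOXC4 and HOXC5. Capitals mark any of 5 short strings, searched on both strands: CACGTG (an E-box, a palindrome), AACAAT (a core of SOX sites), TGGGAA (a core of RBPJ sites), TGATTNAT (a PBX and HOX site) and AGGTCA (a half-site of retinoic acid receptors).
HOXA9: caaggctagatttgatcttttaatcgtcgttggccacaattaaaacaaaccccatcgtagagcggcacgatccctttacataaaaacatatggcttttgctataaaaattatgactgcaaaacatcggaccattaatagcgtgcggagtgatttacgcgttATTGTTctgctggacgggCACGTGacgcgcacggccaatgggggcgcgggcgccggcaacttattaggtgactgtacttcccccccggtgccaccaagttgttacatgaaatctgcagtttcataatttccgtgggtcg
HOXA7: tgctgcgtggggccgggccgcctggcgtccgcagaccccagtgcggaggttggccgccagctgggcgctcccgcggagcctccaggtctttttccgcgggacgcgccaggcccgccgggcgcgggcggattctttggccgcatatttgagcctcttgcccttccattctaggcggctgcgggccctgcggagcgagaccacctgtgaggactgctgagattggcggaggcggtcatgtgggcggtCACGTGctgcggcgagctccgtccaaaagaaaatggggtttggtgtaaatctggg
IRX1: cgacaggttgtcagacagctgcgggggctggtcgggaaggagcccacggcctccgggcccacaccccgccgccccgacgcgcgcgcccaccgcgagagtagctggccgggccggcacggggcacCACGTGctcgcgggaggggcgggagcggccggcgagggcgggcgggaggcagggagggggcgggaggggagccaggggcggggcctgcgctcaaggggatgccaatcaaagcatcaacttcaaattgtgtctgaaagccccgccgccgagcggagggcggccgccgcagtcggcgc
IRX4: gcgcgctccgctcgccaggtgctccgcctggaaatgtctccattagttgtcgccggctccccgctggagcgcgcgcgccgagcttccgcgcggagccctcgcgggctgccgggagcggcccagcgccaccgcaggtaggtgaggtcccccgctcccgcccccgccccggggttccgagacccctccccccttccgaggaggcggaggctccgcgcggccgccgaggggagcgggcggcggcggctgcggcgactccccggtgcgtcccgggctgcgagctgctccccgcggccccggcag
HOXC4: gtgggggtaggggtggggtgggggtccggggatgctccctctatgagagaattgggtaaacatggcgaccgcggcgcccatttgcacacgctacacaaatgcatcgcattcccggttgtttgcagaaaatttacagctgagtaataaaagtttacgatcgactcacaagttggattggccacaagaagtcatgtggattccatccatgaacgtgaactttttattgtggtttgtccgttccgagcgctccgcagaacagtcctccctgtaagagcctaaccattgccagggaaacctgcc

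CACGTG was in 9 of the 23 windows (39.1%) and in 7.43% of all 27305 promoter windows. AACAAT was in 1 of the 23, that of HOXA9, where it lies upstream of the E-box as ATTGTT, and in 10.3% of all windows. TGGGAA was in 1 of the 23, that of HOXA4, and in 24.3% of all, TGATTNAT in 2 of the 23 (HOXA2 and HOXD11) and in 2.94% of all, and AGGTCA in 0 of the 23 and in 13.9% of all. The windows of IRX4 and of HOXC4 and HOXC5 hold none of the 5 strings. The windows of members had a median ratio of observed to expected CpG of 0.875 and all windows one of 0.58, so members and other genes differ in base composition, and the shares are a description only.

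Each library held between 32773820 and 49055208 estimated counts, and 3 counts over a group, the limit that a count of 0 allows, came to between 0.0226 and 0.0255 CPM (the estimated count relative to the library total, scaled by TMM factors, which level out differences in composition between libraries). This limit covers counting error only. SOX2 itself stood at 6.97 ± 0.566 CPM in MB157 iEV, 302 ± 23.2 in MB157 iSOX2, 62.2 ± 6.02 in MB157R iEV and 19.0 ± 1.41 in MB157R iN1-ICD (SD, n = 3), and NOTCH1 at 103 ± 4.97, 36.8 ± 2.71, 95.3 ± 8.67 and 2346 ± 504 CPM. All 8 epithelial markers exceeded 1 CPM in every group. They summed to between 2574.5 and 2614 CPM in MB157 iEV and 2036 to 2073 in MB157 iSOX2. In MB157R iEV the sum was 5497 to 5559 CPM and in MB157R iN1-ICD 6454 to 7360. Not all 8 moved alike, as 4 were higher and 4 lower in MB157R iEV than in MB157 iEV. The receptor genes ESR1 and PGR stood between 0.230 and 1.92 and between 1.61 and 5.06 CPM, as group means, and ERBB2 at 125 ± 7.43 CPM in MB157 iEV and 173 ± 1.73 CPM in MB157R iEV. The 5 endothelial markers summed to between 7.33 and 8.18 CPM in MB157 iEV, 101 to 109.55 in MB157 iSOX2, 4.41 to 4.84 in MB157R iEV and 45.3 to 50.7 in MB157R iN1-ICD. PECAM1 alone made up 92.5 CPM of the sum with SOX2, and KDR and TEK 22.2 and 19.1 CPM of that with N1-ICD. Under a minimum mean count of 5, 3 of 4 endothelial markers tested were called higher with SOX2 (adjusted p under 0.05, edgeR's quasi-likelihood test). Of all genes 56.3% were called there, 28.4% higher. With N1-ICD 3 of 5 were called higher and 1 lower, where 52.8% of all genes were called, 27.6% higher and 25.3% lower. The 8 fibroblast markers summed to between 41.9 and 49.0 CPM in MB157 iEV and between 79.7 and 92.4 in MB157R iEV, with DCN and FAP at 0 in the latter, and were higher in both induced groups, at 68.0 to 74.1 in MB157 iSOX2 and 162 to 170 in MB157R iN1-ICD. The 6 leukocyte markers summed to between 35.7 and 39.3 CPM in MB157 iEV, nearly all of it CD14, to between 7.60 and 9.33 in MB157 iSOX2, to between 0.378 and 0.454 in MB157R iEV and to between 2.70 and 3.47 in MB157R iN1-ICD. The part of these markers in the results was not tested, and in bulk RNA fewer cells of a kind and less RNA per cell cannot be told apart.

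MB157 and MB157R cells used different HOX clusters. The HOXC genes made up 73.4% of all HOX CPM in MB157 iEV, with a summed level of 78.4, 72.8 and 75.3 CPM in the 3 libraries. In MB157R iEV the 9 HOXC genes together stood at 0.638, 0.753 and 0.454 CPM, and HOXB and HOXA genes made up 46.1% and 38.9% of HOX CPM. The HOXB sum was 0.120, 0.117 and 0.121 CPM in MB157 iEV, which was 14 counts in all, and 271, 283 and 258 CPM in MB157R iEV. No library of one line overlapped the other in any of the sums. HOXA rose from 18.3 ± 0.515 to 228 ± 4.39 CPM between the lines and HOXD from 8.89 ± 0.671 to 87.3 ± 4.54, whereas the 6 IRX genes together fell from 233 ± 6.66 to 5.13 ± 0.704 CPM. The total of the 39 HOX genes was 103 ± 3.76 CPM in MB157 iEV and 587 ± 15.7 in MB157R iEV.

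**Figure D1:**
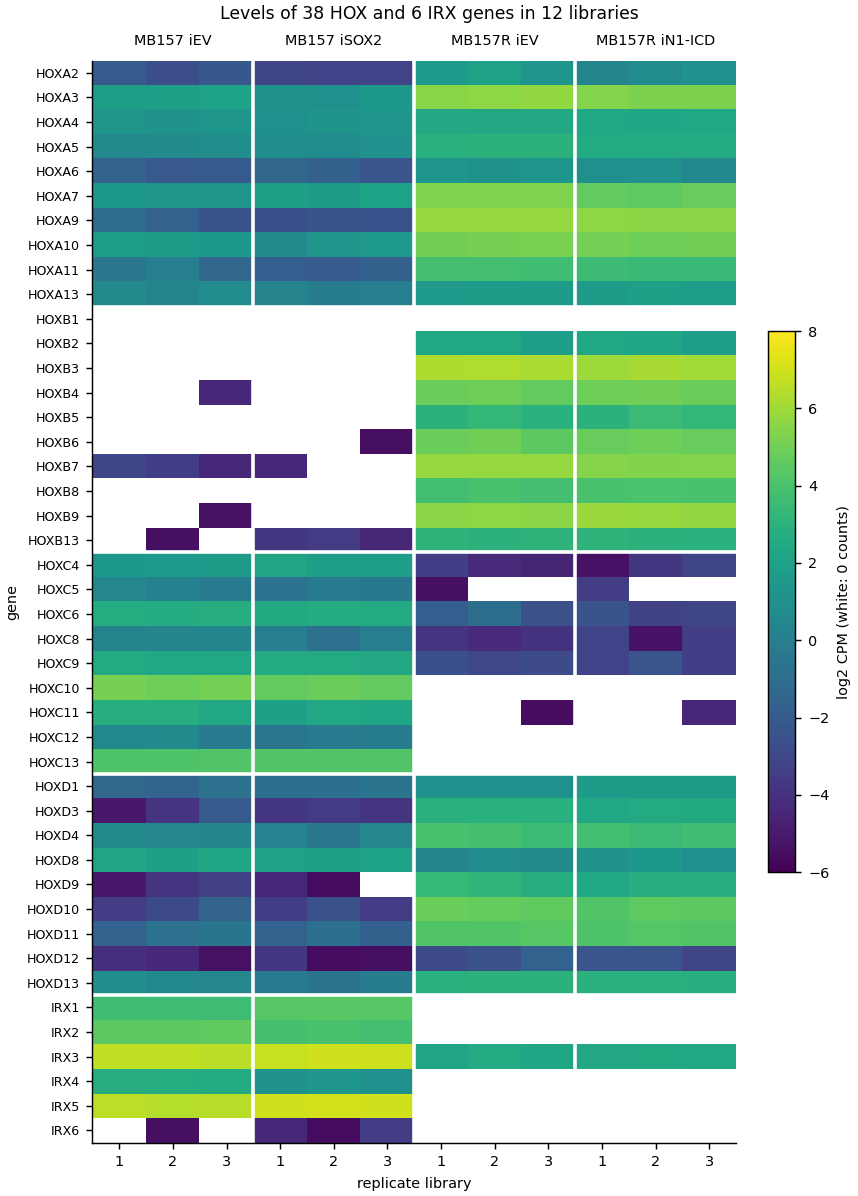
Level of 44 of the 45 genes (rows) in each of the 12 libraries (columns, grouped by line and construct), as log2 CPM on the colour scale, with white for 0 counts. HOXB rows are white or nearly so in the 6 MB157 libraries and IRX1, IRX2, IRX4, IRX5, HOXC10, HOXC12 and HOXC13 are white in the 6 MB157R libraries, while the induced groups keep the pattern of their own line.

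**Figure D2:**
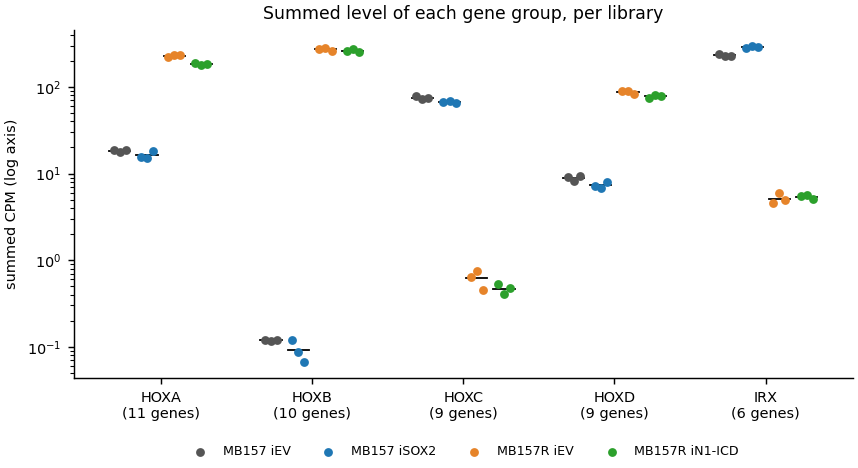
Summed CPM of the HOXA, HOXB, HOXC, HOXD and IRX genes in each library (points, log axis) with the mean of each group of 3 (line). HOXB and HOXC exchange places between MB157 and MB157R, from 0.119 to 271 CPM and from 75.5 to 0.615 CPM, and each induced group lies near the iEV group of its line.

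Of the 45 members, 36 passed the authors' filter for the comparison of MB157R iEV with MB157 iEV and were tested by edgeR's quasi-likelihood test. All 36 passed a Benjamini-Hochberg threshold of 0.05 and are named called here, 25 of them higher and 11 lower in MB157R, against 90.2% of all 11435 genes tested (45% higher, 45.3% lower). A call was therefore the rule for any gene in this comparison, and a member that passed the filter only through the line where it was high had to differ. All 36 members differed at least 2-fold, as did 38.9% of the genes tested, and the median log2 fold change was 3.48 over the 36 members and -0.0043 over all genes tested. These sizes are a description only, because several members, such as HOXB3 and HOXC10, had 0 counts in one line and passed the filter through the other. None of the 36 had libraries that overlapped between the lines, as was so for 90.4% of genes.

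The HOXA genes were higher in MB157R throughout the cluster, HOXA9 by the most. HOXA9, a factor best known from blood stem cells and leukaemia, stood at 0.481, 0.327 and 0.193 CPM in MB157 iEV and at 55.5, 56.0 and 55.1 in MB157R iEV. The MB157 libraries were all low and the MB157R libraries close together, a 167-fold difference and a log2 fold change of 7.34 ± 0.12 (SE, edgeR's quasi-likelihood adjusted p = 5.07e-15). HOXA9 passed the authors' filter through MB157R, so it had to differ and its p-value is a description only. HOXA7, which patterns the trunk, stood at 2.79, 2.67 and 2.68 CPM against 39.7, 38.9 and 39.0, a 14.4-fold difference. HOXA11, a limb and uterus gene, was 19.6-fold higher and HOXA3, which acts in the pharyngeal arches, 12.7-fold higher (3.91 ± 0.439 against 49.5 ± 3.00 CPM). HOXA10, needed in the uterus, was 10.8-fold higher, from 3.21 ± 0.357 to 34.7 ± 1.71 CPM. The smallest difference among the 10 tested was that of HOXA4, 2.15-fold, and HOXA13, the last gene of the cluster, was not tested under the authors' filter and was 2.04-fold higher (1.50 ± 0.242 against 3.06 ± 0.209 CPM, called under a second filter, a minimum mean count of 5, under which 86.7% of genes were called, 42.9% higher and 43.8% lower). The estimated counts of HOXA9 and HOXA10 share reads with the read-through transcript HOXA10-HOXA9, and the 3 together rose from 3.54 ± 0.491 to 90.5 ± 1.85 CPM.

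The HOXB cluster was close to silent in MB157 and active from HOXB2 to HOXB13 in MB157R. HOXB3, a hindbrain and pharyngeal gene, had 0 counts in all 3 MB157 iEV libraries and stood at 78.9, 79.1 and 74.4 CPM in MB157R iEV, at least 3030-fold higher when the 0 is replaced by 3 counts for the 3 libraries together. HOXB2, HOXB5, HOXB6 and HOXB8 also had 0 counts in MB157 iEV and were at least 178, 333, 1039 and 572-fold higher. HOXB7, which has been studied as a driver of growth and migration in breast cancer cells, was the highest of all members per transcript length in MB157R. It stood at 0.120, 0.0935 and 0.0482 CPM in MB157 iEV and 55.7, 55.2 and 54.9 in MB157R iEV, a 633-fold difference (log2 fold change 9.22 ± 0.12, edgeR's quasi-likelihood adjusted p = 7.31e-16). HOXB7 too passed the authors' filter through MB157R, so the p-value is a description only. HOXB4, a blood stem cell gene, had 2 counts in MB157 iEV and 3528 in MB157R iEV, a ratio of 1615 with a 95% counting interval from 447 to 13339. HOXB9 had 1 count against 6113 (ratio 5596, interval 1004 to 221060) and HOXB13, a prostate gene, 1 against 1076 (ratio 985, interval 176 to 38940). HOXB1, the first gene of the cluster, had 0 counts in all 12 libraries.

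The HOXC genes ran the other way. HOXC10, the highest HOX gene of MB157 iEV and one that patterns the lumbar region and hindlimb, stood at 35.1, 30.3 and 33.8 CPM there and at 0 counts in every MB157R iEV library, at least 1407-fold lower. HOXC13, which controls hair and nail keratins, stood at 17.6, 17.5 and 18.6 CPM in MB157 iEV and likewise at 0, at least 768-fold lower. HOXC11 had 727 counts against 1 (ratio 794, interval 142 to 31411). HOXC9 was 36.3-fold lower in MB157R (5.36 ± 0.487 against 0.147 ± 0.0202 CPM) and HOXC6, a thoracic gene also expressed in breast, 19.3-fold lower (6.33 ± 0.183 against 0.328 ± 0.181). All 5 were called, where 90.2% of all genes were. The other 4 HOXC genes, HOXC4, HOXC5, HOXC8 and HOXC12, did not pass the authors' filter. All 4 were called lower under the second filter, where 86.7% of genes were called, 43.8% lower. The HOXC genes passed either filter through MB157, so these calls are a description only. Estimated counts of HOXC4, HOXC5 and HOXC6, which share a start in the annotation, were split between the genes by Salmon, and their sum fell from 10.4 ± 0.125 to 0.398 ± 0.181 CPM.

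The HOXD genes were higher in MB157R with 1 exception. HOXD10, which patterns the hindlimb and has been studied as a brake on breast tumour cell invasion, stood at 0.0901, 0.140 and 0.338 CPM in MB157 iEV and at 28.6, 26.3 and 24.1 in MB157R iEV, a 139-fold difference. Its neighbours HOXD9 and HOXD11 were 132-fold and 35.4-fold higher, HOXD3 was 65.7-fold, HOXD4 9.84-fold and HOXD13, a gene of the digits and the urogenital tract, 4.82-fold higher. HOXD8, which lies between HOXD9 and HOXD4, was 2.94-fold lower in MB157R, at 4.53, 3.95 and 4.75 CPM in MB157 iEV and 1.25, 1.71 and 1.54 in MB157R iEV (log2 fold change -1.63 ± 0.16, edgeR's quasi-likelihood adjusted p = 6.21e-07). HOXD1 and HOXD12 were called higher only under the second filter, where 86.7% of genes were called, 42.9% higher.

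IRX RNA was abundant in MB157 and nearly absent from MB157R. IRX5 stood at 95.7, 88.2 and 91.9 CPM in MB157 iEV and at 0 counts in MB157R iEV, at least 3921-fold lower. IRX3, a gene that takes part in heart conduction and in fat tissue, kept some RNA in MB157R, at 4.58, 5.93 and 4.89 CPM against 103, 99.9 and 93.8, a 19.3-fold difference (log2 fold change -4.34 ± 0.08, edgeR's quasi-likelihood adjusted p = 1.33e-14). IRX2, IRX1 and IRX4, the group on chromosome 5, had 22.8 ± 1.02, 12.8 ± 0.274 and 6.40 ± 0.236 CPM in MB157 iEV and 0 counts in MB157R iEV, at least 976, 547 and 273-fold lower. IRX6 had 1 count in MB157 iEV and 0 in MB157R iEV. In MB157 the estimated counts of IRX3 and IRX5 also share reads, and their sum, 191 ± 6.94 CPM, fell to 5.13 ± 0.704 in MB157R.

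**Figure D3:**
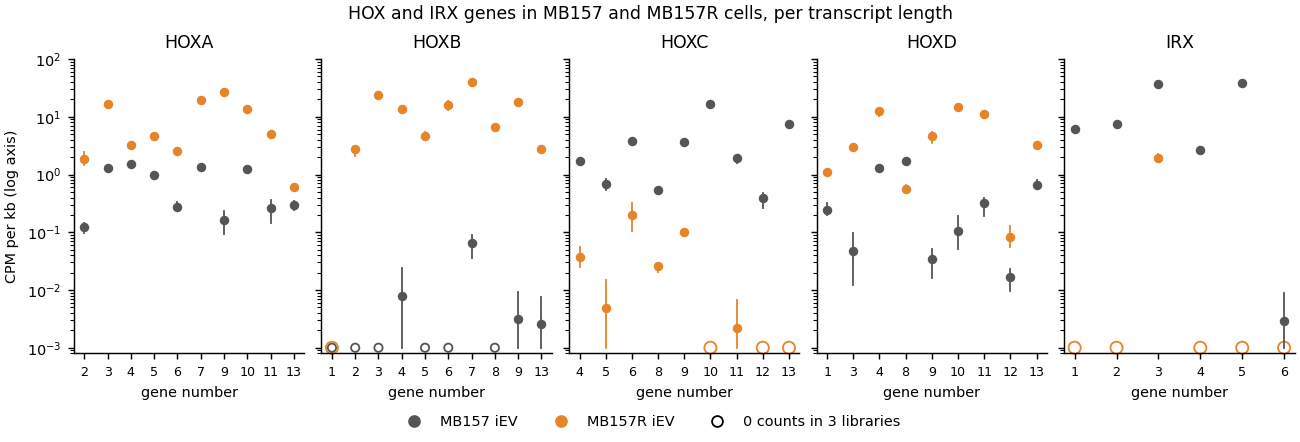
CPM per kb of reference transcript (log axis) for 44 of the 45 genes in the order of their numbers within the HOXA, HOXB, HOXC, HOXD and IRX groups, in MB157 iEV (grey) and MB157R iEV (orange), with the mean of 3 libraries as a point, their range as a bar cut off at 0.001 and 0 counts as an open circle. HOXB and HOXC show opposite patterns, HOXD8 is the HOXD gene that is lower in MB157R, and IRX3 is the IRX gene with RNA in both lines.

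Per kb of reference transcript, the order of levels was different in the 2 lines. In MB157 iEV, IRX5 and IRX3 led at 38.3 ± 1.57 and 37.7 ± 1.78 CPM per kb, a difference smaller than their spread, followed by HOXC10 at 16.7 ± 1.25 and by HOXC13 and IRX2 at 7.60 ± 0.248 and 7.39 ± 0.332, which again lay within their spread. In MB157R iEV, HOXB7 led at 40.5 ± 0.308 CPM per kb, followed by HOXA9 at 26.9 ± 0.225, HOXB3 at 23.5 ± 0.799 and HOXA7 at 19.4 ± 0.209. HOXB9 followed at 18.4 ± 0.348, and the order of HOXA3, at 16.3 ± 0.991, and HOXB6 after it lay within their spread.

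Set out by paralog group, which joins genes of the same number, the summed levels of groups 10 and 13 lay within 2-fold between the lines and those of the other 11 groups did not. Group 10 (HOXA10, HOXC10 and HOXD10) summed to 18.1 ± 1.24 CPM per kb in MB157 iEV, 92.4% of it from HOXC10, and to 28.4 ± 0.657 in MB157R iEV, 48.1% from HOXA10 and 51.9% from HOXD10. Group 13 summed to 8.57 ± 0.249 CPM per kb, 88.7% from HOXC13, and to 6.57 ± 0.118, of which HOXD13 and HOXB13 gave 48.8% and 41.9%. In both groups the leading genes of one line were low or at 0 in the other. Group 3 summed to 1.34 ± 0.191 CPM per kb in MB157 iEV and to 42.9 ± 0.631 in MB157R iEV, and group 7 to 1.41 ± 0.0575 and 60.0 ± 0.505.

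Most of the flanking genes compared at the 6 loci were expressed in both lines. This comparison was chosen after the values of the members had been seen. For each side of the 6 loci, the nearest 3 protein-coding genes matched by symbol to the count table were taken, 36 in all. Genes without a matching symbol were passed over, and distances from a locus ran from 3.525 kb (EVX2) to 2847.5 kb (UBE2QL1). Of the 36, 26 were at 1 CPM or more in both iEV groups, and 16 of these differed by less than 2-fold. Of all genes tested between the lines, 38.9% were called and differed at least 2-fold. By group means, those of the 26 beside HOXA, HOXB and HOXD were higher in MB157R, and those beside HOXC lower. SKAP2 and SNX10 beside HOXA were 4.93-fold and 9.25-fold higher, and SNX11 beside HOXB 3.91-fold. HNRNPA1 beside HOXC was 2.15-fold lower. Whether these differences relate to those of the members was not tested. A further 7 flanking genes were under 1 CPM in both, among them EVX1 and EVX2, the homeobox genes next to the HOXA and HOXD clusters. The 3 that reached 1 CPM in 1 line only all flanked an IRX group. MMP2, a matrix metalloproteinase 148 kb from the group of IRX6, stood at 0.123 ± 0.0635 CPM in MB157 iEV and 389 ± 17.6 in MB157R iEV. LPCAT2, 178 kb from that group, stood at 0.662 ± 0.182 and 97.1 ± 3.71. ADAMTS16, 1539 kb from the group of IRX1, stood at 1.58 ± 0.0953 and 0.519 ± 0.0995. FTO, on the other side of IRX3, stood at 84.9 ± 0.302 and 33.3 ± 2.65 CPM.

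Few noncoding RNAs of the loci passed the authors' filter. HOTAIR, a long noncoding RNA of the HOXC cluster, stood at 6.07, 4.35 and 5.62 CPM in MB157 iEV and at 0 counts in MB157R iEV, at least 226-fold lower, and CRNDE, beside IRX5, fell from 22.5 ± 0.494 CPM to 0 counts, at least 966-fold lower. HOXA10-AS was 110-fold higher in MB157R (0.0753 ± 0.0169 against 8.30 ± 0.895 CPM) and HOTAIRM1, another RNA of the HOXA cluster, 5.75-fold higher. HOXD-AS1, which did not pass the authors' filter, stood at 5.27 ± 0.482 and 42.2 ± 2.45 CPM and was called higher under the second filter. Of the 25 RNAs of this list in the table, 6 were tested, of which 2 were called higher and 4 lower, in a comparison that called 90.2% of all genes.

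The second comparison asked what SOX2 does to these genes in MB157 cells. SOX2 moved the IRX genes in both directions, left the HOXB cluster silent and changed 5 of the 12 HOX genes tested, none of them by 2-fold. Of the 45 members, 17 passed the authors' filter and 10 of them were called, 5 higher and 5 lower, against 66.4% of all 10904 genes tested (32.5% higher, 33.9% lower). The share called was thus near that of all genes, and the median log2 fold change of the 17 was -0.08, against -0.0019 over all genes. At least a 2-fold change was seen in 1 of the 17, and in 6.05% of all genes. The libraries of the 2 groups did not overlap for 9 of the 17 and for 69.8% of all genes.

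All 5 tested IRX genes were called, as were 66.4% of all genes, and only IRX4 changed at least 2-fold. IRX4, which marks the ventricles of the heart, fell from 6.67, 6.31 and 6.22 CPM in MB157 iEV to 2.25, 2.59 and 2.06 in MB157 iSOX2, 2.78-fold lower (log2 fold change -1.47 ± 0.12, edgeR's quasi-likelihood adjusted p = 3.13e-08). Its neighbour IRX2 fell 1.50-fold, from 22.0, 22.4 and 23.9 CPM to 15.2, 15.7 and 14.7. IRX1, the third gene of that group, rose 1.60-fold instead, from 13.1, 12.6 and 12.7 CPM to 20.5, 20.4 and 20.7 (log2 fold change 0.69 ± 0.06, adjusted p = 2.35e-08). The libraries did not overlap for any of the 3, as was so for 69.8% of all genes. Genes of 1 group of IRX genes thus moved in opposite directions. On chromosome 16, IRX5 rose 1.40-fold, from 91.9 ± 3.77 to 129 ± 2.65 CPM, and IRX3 1.22-fold, from 98.9 ± 4.67 to 121 ± 7.65 CPM. Reads of these 2 genes are shared and were split between them by Salmon, so their separate values rest on that split. Their sum went from 191 ± 6.94 to 250 ± 8.75 CPM. IRX6 had 1 count in MB157 iEV and 7 in MB157 iSOX2, a ratio of 6.21 with a counting interval from 0.797 to 280.

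The comparison of the lines and that of MB157 iSOX2 share the MB157 iEV libraries. IRX5 stood at 91.9, 129 and 0 CPM in MB157 iEV, MB157 iSOX2 and MB157R iEV, and IRX4 at 6.40, 2.30 and 0 CPM.

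Among the HOXC genes, HOXC10 fell 1.28-fold with SOX2, from 35.1, 30.3 and 33.8 CPM to 24.6, 27.8 and 24.7 (edgeR's quasi-likelihood adjusted p = 0.000122), and HOXC11 1.35-fold, from 6.21 ± 0.827 to 4.61 ± 0.685 CPM. The call of HOXC11 was lost without MB157 iSOX2 replicate 1 (adjusted p = 0.0578). HOXC13, at 17.9 ± 0.584 and 18.7 ± 0.639 CPM, was not called, with a 95% interval of the log2 fold change from -0.06 to 0.19. HOXC12, at 1.30 ± 0.401 and 0.819 ± 0.112 CPM, was called lower with an adjusted p of 0.0461, although its libraries overlapped, and over the alternatives other than the test against a 2-fold change its adjusted p reached 0.198. HOXC4 was called 1.32-fold higher (2.94 ± 0.177 against 3.88 ± 0.548 CPM), but not without MB157 iEV replicate 1 (adjusted p = 0.0592) or MB157 iSOX2 replicate 1 (0.109). The sum of HOXC4, HOXC5 and HOXC6, which share reads, was 10.4 ± 0.125 and 10.6 ± 0.258 CPM, so the rise of HOXC4 was not seen in the sum.

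HOXA7 rose 1.40-fold with SOX2, from 2.79, 2.67 and 2.68 CPM to 3.94, 3.18 and 4.28 (log2 fold change 0.49 ± 0.14, edgeR's quasi-likelihood adjusted p = 0.00706). HOXA4 and HOXA5 were not called, and the other 8 HOXA genes did not pass the authors' filter. Under the second filter, which tested 31 members, 5 were called higher and 7 lower, against 56.3% of 16397 genes called (28.4% higher, 27.9% lower). It added HOXA3, 1.65-fold lower (3.63, 3.67 and 4.41 against 2.27, 2.02 and 2.79 CPM), HOXA11, 2.43-fold lower, and HOXD13, 1.99-fold lower (1.61 ± 0.326 against 0.808 ± 0.148 CPM), and no longer called HOXC12.

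The HOXB genes together had 14 counts in MB157 iEV and 12 in MB157 iSOX2, with HOXB2, HOXB3, HOXB5 and HOXB8 at 0 in both. HOXB7 had 10 and 2 counts (ratio 5.64, counting interval 1.20 to 52.9) and HOXB13 1 and 9 (ratio 7.98, interval 1.11 to 350).

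**Figure D4:**
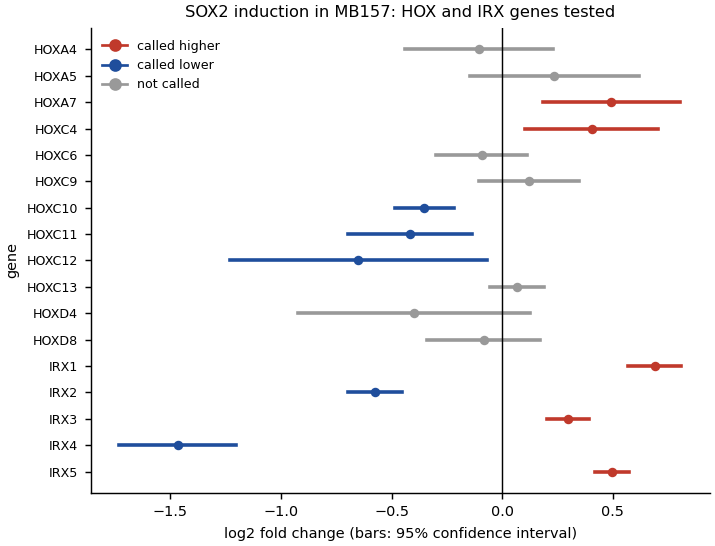
Log2 fold change of MB157 iSOX2 over MB157 iEV for the 17 members tested (points) with 95% confidence intervals (bars), red where called higher, blue where called lower and grey where not called. IRX4 lies farthest from 0 at -1.47, IRX1 is the highest at 0.69, and most HOX genes lie within 0.5 of 0.

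The third comparison asked what N1-ICD does in the resistant cells. N1-ICD lowered several HOXA genes by a modest amount, raised HOXB9, HOXD1 and HOXD8, and left most IRX genes at 0 counts. Of the 45 members, 29 passed the authors' filter, of which 3 were called higher, 9 lower and 17 not called, against 59.1% of all 11210 genes called (29.8% higher, 29.3% lower). None of the 29 changed 2-fold, as 5.17% of all genes did. The libraries did not overlap for 17 of the 29 and for 65.5% of all genes. Under the second filter, 32 members were tested, with 3 higher and 10 lower, against 52.8% of genes called (27.6% higher, 25.3% lower). The median log2 fold change of the 29 was -0.08, against -0.0014 over all genes. This comparison shares the MB157R iEV libraries with the first.

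Of the 11 HOXA genes, 6 were called lower and 5 were not called. That made 54.5% called, against 59.1% of all genes (29.3% lower). The HOXA sum went from 228 ± 4.39 to 186 ± 5.94 CPM. HOXA7, which had risen with SOX2 in MB157, fell from 39.7, 38.9 and 39.0 CPM in MB157R iEV to 25.3, 22.7 and 26.5 in MB157R iN1-ICD, 1.58-fold lower (log2 fold change -0.62 ± 0.06, edgeR's quasi-likelihood adjusted p = 6.13e-06). HOXA2, a hindbrain and neural crest gene, fell 1.89-fold, from 2.95, 4.07 and 2.47 CPM to 1.27, 1.66 and 2.08. These were the only changes over 1.5-fold among the HOXA genes, and for neither did the groups overlap, as was so for 65.5% of all genes. HOXA5, a tumour suppressor candidate in breast, fell 1.29-fold, HOXA3 1.26-fold, HOXA11 1.22-fold and HOXA9 1.16-fold (55.6 ± 0.465 against 47.9 ± 0.908 CPM). HOXA10 and HOXA13 were not called, with 95% intervals of the log2 fold change from -0.20 to 0.05 and from -0.05 to 0.53. HOXA11 lost its call when any 1 of 4 libraries was left out, with an adjusted p up to 0.0785 without MB157R iEV replicate 2.

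In the HOXB cluster, HOXB7 fell 1.30-fold, from 55.3 ± 0.420 to 42.4 ± 1.67 CPM (edgeR's quasi-likelihood adjusted p = 4.76e-05), and HOXB9, 2 genes further on, rose 1.18-fold, from 46.7, 48.4 and 47.8 to 58.5, 56.5 and 53.1 (adjusted p = 0.000421). The libraries did not overlap for either. HOXB3 fell 1.16-fold (adjusted p = 0.0324) and lost the call when any 1 of 4 libraries was left out, with an adjusted p up to 0.122 without MB157R iN1-ICD replicate 1. The other 6 HOXB genes tested were not called, with HOXB13 at 8.36 ± 0.468 and 8.04 ± 0.442 CPM. HOXB4, at 27.6 ± 2.50 and 30.2 ± 1.51 CPM, had an adjusted p of 0.0718, which became 0.0248 with replicate number as a block and 0.0152 without MB157R iEV replicate 2.

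HOXD8, the HOXD gene that was lower in MB157R than in MB157, rose 1.58-fold with N1-ICD, from 1.25, 1.71 and 1.54 CPM to 2.25, 2.80 and 2.06 (edgeR's quasi-likelihood adjusted p = 0.00891), against 4.41 ± 0.413 CPM in MB157 iEV. HOXD1 rose 1.54-fold, from 2.08, 2.13 and 2.05 CPM to 3.25, 3.35 and 3.05 (adjusted p = 0.00172). HOXD3 fell 1.33-fold, from 7.47 ± 0.133 to 5.60 ± 0.263 CPM. HOXD9 and HOXD10 had adjusted p of 0.0639 and 0.0539 and were called lower in several alternatives. HOXD11 and HOXD13 differed by log2 fold changes with 95% intervals from -0.15 to 0.16 and from -0.20 to 0.19.

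HOXC10, HOXC12, HOXC13, IRX1, IRX2, IRX4, IRX5 and IRX6 had 0 counts in all 3 MB157R iN1-ICD libraries, which allows up to 0.0237 CPM. IRX3 stood at 5.13 ± 0.704 and 5.43 ± 0.258 CPM in MB157R iEV and MB157R iN1-ICD and was not called, with a 95% interval from -0.16 to 0.40. Of the noncoding RNAs, HOXA10-AS fell 1.67-fold and HOTAIRM1 1.43-fold.

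**Figure D5:**
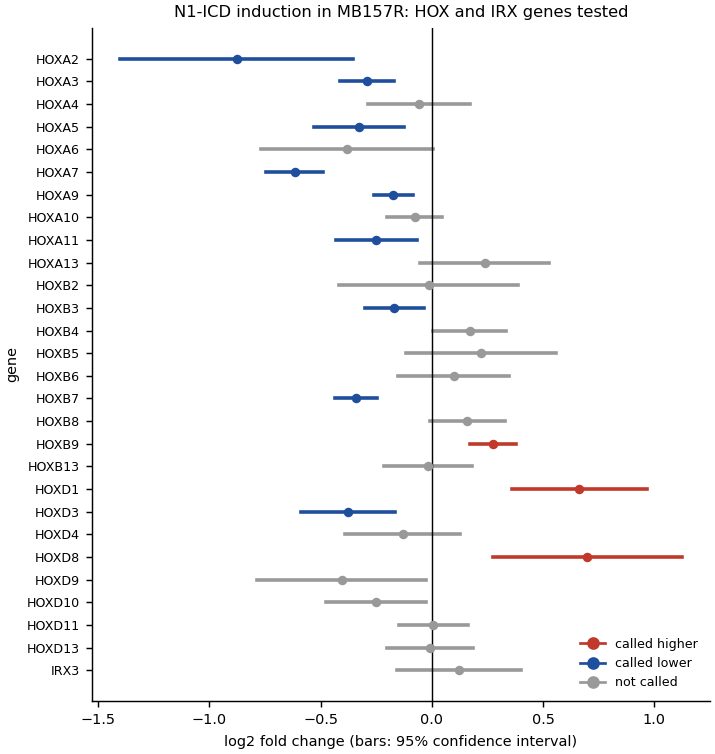
Log2 fold change of MB157R iN1-ICD over MB157R iEV for 28 of the 29 members tested (points) with 95% confidence intervals (bars), red where called higher, blue where called lower and grey where not called. HOXA2 and HOXA7 lie lowest at -0.88 and -0.62, and HOXD8 and HOXD1 highest at 0.70 and 0.66.

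HOX proteins bind DNA with TALE partners, the PBX and MEIS proteins. MEIS2 had 0 counts in MB157 iEV and stood at 39.4, 40.0 and 38.2 CPM in MB157R iEV, at least 1534-fold higher, and fell 1.73-fold with N1-ICD, to 21.8, 22.6 and 23.8 CPM. MEIS1 was higher in MB157R (2.28 ± 0.242 against 8.88 ± 0.726 CPM) and MEIS3 6.82-fold lower. Of the 11 TALE genes tested between the lines, 5 were higher and 6 lower, against 90.2% of all genes called. With SOX2 4 of 9 were higher and 1 lower (55.6% called, against 66.4% of all genes), and with N1-ICD 1 of 10 was higher and 4 lower (50% called, against 59.1%).

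Genes that act on HOX clusters were called in both directions, the Polycomb subunits at total shares near those of all genes. Of 35 Polycomb subunits tested in each comparison, 18 were higher, 13 lower and 4 not called in MB157R, 6 higher and 19 lower with SOX2, and 10 higher and 10 lower with N1-ICD, with median log2 fold changes of 0.10, -0.15 and 0.02. The shares called were 88.6%, 71.4% and 57.1%, against 90.2%, 66.4% and 59.1% of all genes. By direction, 45% of all genes were higher and 45.3% lower in MB157R, 32.5% and 33.9% with SOX2, and 29.8% and 29.3% with N1-ICD. The Polycomb subunits called with SOX2 were thus mostly lower, unlike the calls over all genes. CBX7 and CBX8, subunits that read the Polycomb mark, were 2.43-fold and 2.67-fold lower in MB157R, while PHF19 was 3.99-fold higher. A list of 20 genes joined Trithorax genes and demethylases, which oppose Polycomb, with other chromatin factors such as DOT1L. Of these 20, 10 were higher and 9 lower in MB157R, among them DOT1L, 2.40-fold higher, and KMT2B, 3.23-fold lower. With SOX2 3 were higher and 7 lower, and with N1-ICD 8 were higher and 4 lower. That made 95%, 50% and 60% called, against the shares of all genes given above. Retinoic acid switches on early HOX genes in embryos, and of its 13 genes tested between the lines 7 were higher and 6 lower in MB157R, where 90.2% of all genes were called. ALDH1A3, a retinoic acid synthesis enzyme, was 130-fold higher (19.3 against 2511 CPM), and CRABP1, a binding protein, fell from 186 CPM to 0 counts, at least 8000.4-fold lower. With SOX2 2 of 12 were higher and 8 lower (83.3% called, against 66.4% of all genes), with CYP26B1, which breaks retinoic acid down, 6.70-fold higher and the receptor RARB 3.93-fold lower. With N1-ICD 5 of 13 were higher and 5 lower (76.9% called, against 59.1%), with CYP26B1 2.02-fold lower.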

How the data were processed

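Libraries were made from polyA RNA (800 ng, stranded kit) of 12 samples. The authors mapped paired reads to hg38 and quantified them with STAR and Salmon. They deposited estimated counts per gene (not normalized, 29744 rows) and 3 tables of log2 CPM for the genes that passed their filters, per the labels with edgeR 3.42.4 and limma 3.56.2. The annotation is not given in the sources used here. The log2 values could be recomputed from the deposited counts within 5.0e-14.

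Here rounded estimated counts of the genes in each filtered table were compared over its 6 libraries with edgeR's quasi-likelihood test (edgeR 4.0.16, R 4.3.3), TMM factors, no block and a Benjamini-Hochberg threshold of 0.05 over all genes tested. Filters on low genes decide which members are tested: 11435, 10904 and 11210 genes entered. The test was checked on simulated data. The biological coefficient of variation was 0.0463, 0.0378 and 0.0549. Levels are CPM with TMM factors over all 12 libraries, given as mean ± SD, and folds are ratios of these means. A fold against 0 counts uses a floor of 3 counts over the group, and ratios with 1 to 3 counts carry an exact 95% counting interval. Transcript lengths are of GENCODE reference transcripts, promoters of RefSeq.

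No 2 libraries within a group agreed within sampling noise (chi-square per gene 3.73 to 18.3). The study's legends for the figures with RNA-seq panels speak of biological replicates. Nothing in the labels says the libraries were separate cultures, so the p-values rest on spread that may be technical. Members and gene lists were chosen with earlier results of these data known. Every member is named or counted. A few genes, 1 member among them, are counted but not reported individually here. From other lists, genes were taken from the 2 largest rises and falls per comparison among those called that averaged 1 CPM or more, and the text gives a part of these. RLE factors and unscaled library totals were tried as alternatives, as were limma-voom (limma 3.58.1), DESeq2 1.42.0, a minimum mean count of 5 in place of the authors' filters, no filter at all, 12 libraries in 1 fit, replicate number as a block, glmTreat at a log2 fold change of 1 and the omission of each library.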

Additional observations from a re-analysis of the deposited data

How the results depend on the processing

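Over the alternatives for single members, 1170 values kept their direction and their side of the threshold, 44 kept the direction and lost the call, 16 gained it and 0 reversed. Between MB157R iEV and MB157 iEV, leaving out any library gave 25 members higher and 11 lower each time, with 10115 to 10246 genes called in all. For SOX2, leaving out a library gave 4 to 5 members higher, 3 to 5 lower (3 without MB157 iSOX2 replicate 1) and 6670 to 6920 genes. For N1-ICD it gave 3 to 5 higher (5 without MB157R iEV replicate 2, when HOXB4 and HOXB8 were added), 7 to 12 lower and 5810 to 6327 genes. The test against a log2 fold change of 1 called 4008 of the 11435 genes tested between the lines, with 24 members higher and 11 lower. The main test had called 10318. For SOX2 the test against a log2 fold change of 1 called 0 members higher, 1 lower and 473 of 10904 genes tested (7237 in the main test). For N1-ICD it called 0 higher, 0 lower and 373 of 11210 genes tested (6621 in the main test). With no filter, 40 members were tested for SOX2, of which 5 were higher and 9 lower, against 5 higher and 5 lower of 17. Of all 20985 genes tested without a filter, 9375 were called.

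Scaling by library totals alone moved the share of higher calls with SOX2 from 48.9% to 60.6% of all genes called, with 5 members higher and 4 lower. Replicates with the same number did not deviate together (correlations from -0.172 to 0.0780 over 17102 genes, and not every library correlated best with its own number). With replicate number as a block, 25 members were higher and 11 lower between the lines, 5 and 4 with SOX2 and 4 and 9 with N1-ICD, and 10247, 7019 and 6422 genes were called. Low counts limit what can be said of HOXB genes in MB157 and of HOXC and IRX genes in MB157R, where levels under about 0.02 CPM were not detectable.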

Other observations

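Homeobox genes outside the HOX and IRX groups were called in both directions. Of 100 others in the table, 47 were tested between MB157R iEV and MB157 iEV, with 28 higher, 17 lower and 2 not called by edgeR's quasi-likelihood test (95.7% called, against 90.2% of all genes). ALX4 and LMX1B, limb patterning genes, stood at 21.5 and 34.8 CPM in MB157 iEV. In MB157R iEV ALX4 had 0 counts (at least 920-fold lower) and LMX1B 0.00787 CPM, under the limit of 0.0234 CPM that 3 counts make there. MSX2, a target of BMP signalling, stood at 0.0161 CPM in MB157 iEV, under the limit of 0.0255 CPM, and at 12.4 CPM in MB157R iEV. With SOX2, 10 of 36 were higher and 17 lower (75% called, against 66.4%). DLX5 and DLX6, a pair of neighbours that act in bone and the craniofacial skeleton, rose 9.27-fold and 6.95-fold, from 4.73 ± 0.771 to 43.8 ± 1.91 CPM and from 2.21 ± 0.0617 to 15.4 ± 1.13 CPM, while BARX2 fell 3.97-fold. With N1-ICD, 15 of 41 were higher and 11 lower (63.4% called, against 59.1%), PRRX2, a mesenchymal gene, rose 2.33-fold and DLX5 fell 1.93-fold.

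Of 13 ParaHox, EVX and caudal genes, 3 were tested between the lines. PDX1 and CDX2, genes of the pancreas and gut, were 15.9-fold and 14.0-fold higher in MB157R, and MNX1 was 5.52-fold lower. With N1-ICD, MNX1 rose 1.68-fold and MEOX1, listed here with the ParaHox genes, rose 24.7-fold, from 0.176 to 4.33 CPM.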
